A study of Mus musculus with 17 samples.

Results

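The comparison set livers of Nampt OE mice against livers of Nampt +/- mice, 24 h after both had received 200 mg/kg acetaminophen (APAP), the pain reliever whose overdose is the standard model of drug-induced liver injury. Its samples were the libraries that carry these genotypes and this dose, 5 of the 17 in the series: 2 from OE livers and 3 from Nampt +/- livers, here called Het. Of 46073 genes in the deposited table, 11236 had a mean of at least 1 FPKM (fragments, scaled by transcript length and by library size) over the 5 libraries and were tested. All mice were C57BL/6 males. OE APAP 1 came from an 11-week-old mouse whose liver was not perfused and was sequenced on lane L004, and OE APAP 2 from a 12-week-old mouse with a perfused liver on lane L008. Het APAP 1 was a perfused liver on lane L008, Het APAP 2 and 3 were not perfused and ran on lane L005, and all 3 mice were 11 weeks old. A further OE liver, from a 12-week-old mouse given 300 mg/kg, not perfused and on lane L004, was a group of its own in the fit and was not counted as OE APAP, except in the settings named for it. The OE and Het saline livers, all from 11-week-old mice, were OE saline 1 (perfused, lane L008), OE saline 2 (not perfused, lane L004) and Het saline 1 and 2 (both perfused, lane L008). The other 7 libraries were from Nampt +/+ (WT) mice, and they entered the fit as groups of their own: WT APAP 1 to 3 (200 mg/kg, not perfused, lane L005, 11 weeks old), WT saline 1 and 2 (perfused, lane L007, 12 weeks old), WT saline 3 and WT saline IG 1 (both not perfused, lane L006, 11 weeks old). The sources used here do not spell out OE or give the promoter or cell type that drives it, nor the route of injection of each mouse. The labels do not state that each library is a different animal, so p-values here measure the spread among these libraries alone, and that spread may be technical.

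Nampt makes nicotinamide mononucleotide from nicotinamide, the rate-limiting step of the salvage route that supplies most of the NAD of a hepatocyte, and a Nampt +/- mouse carries a single working copy of the gene. Most of a dose of acetaminophen is joined to glucuronic acid or sulfate and excreted, while P450 enzymes, above all Cyp2e1 of the hepatocytes around the central vein, oxidise the rest to a reactive quinone imine that uses up glutathione and damages mitochondrial proteins. The cells around the central vein then die, monocytes and neutrophils enter the liver, and surviving hepatocytes lower their metabolic genes, raise acute-phase proteins and later divide.

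Sequencing depth, recovered from the step that a single fragment makes in the FPKM of genes with few reads, was such that 1 FPKM of a transcript of 1 kb stood for about 7.01 and 19.0 fragments in OE APAP 1 and 2 and for about 45.0, 58.9 and 14.0 fragments in Het APAP 1, 2 and 3. Counting error is thus largest in OE APAP 1 among these. The 300 mg/kg OE liver, used as a check, was shallower still, at about 5.28 fragments. Of the hepatocyte markers Alb, albumin, was listed at 0 in all 17 libraries and was not tested. Others were high in all 17: Apoa1, the main protein of high-density lipoprotein, ranged over 3842 to 8450.4 FPKM and Ttr, the thyroxine carrier transthyretin, over 1275 to 4086 FPKM, while of 5 markers of other organs the highest reading was 13.4 FPKM. On the first principal component, which held 43.3% of the variance and ran between saline and injured livers, OE APAP 1 and 2 scored -13.3 and 8.59 and the 300 mg/kg OE liver -9.99, against 38.6, 64.9 and 57.5 for the 3 Het livers. The saline livers, wild type included, scored as low as -30.6 and at most -16.01, so OE livers lay nearer to them than Het livers did. This was not particular to OE. WT APAP 1 and 2 scored 5.71 and 13.3, on either side of OE APAP 2, and WT APAP 3 scored 38.6, as Het APAP 1 did. On the second component (12.6%), OE APAP 1 and OE saline 2, both not perfused and from lane L004, stood apart from the other libraries with 38.6 and 37.9, against at most 14.9 elsewhere. The 300 mg/kg OE liver, also not perfused and from lane L004, did not stand with them and scored -13.8.

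Nampt (chr12:32819545-32853349 on the plus strand of GRCm38, ENSMUSG00000020572) read 36.0 and 18.5 FPKM in OE livers after APAP, against 15.4, 11.3 and 15.2 FPKM in Het livers. Each OE liver lay above each Het liver, and OE APAP 1 stood above the rest. The fitted difference, OE minus Het on the log2(FPKM + 1) scale, was 0.89 ± 0.24 (SE, 95% interval 0.37 to 1.42, adjusted p = 0.0309). In the perfused livers, which share lane L008, the difference was 0.25, and in those not perfused it was 1.39. The 300 mg/kg OE liver read 18.2 FPKM. Under saline the groups overlapped: Nampt read 22.4 and 27.2 FPKM in OE livers, against 26.0 and 23.0 FPKM in Het livers, a fitted difference of -0.10. The call after APAP was lost without OE APAP 1 (0.42, adjusted p = 0.556), without Het APAP 2 (0.72, adjusted p = 0.0844) and without Het APAP 3 (0.92, adjusted p = 0.0671). FPKM do not tell transcripts of a transgene from those of the mouse gene.

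After APAP, 1637 of the 11236 genes (14.6%) differed between OE and Het livers at an adjusted p under 0.05, with 994 higher in OE (8.85%) and 643 lower (5.72%). Differences here and throughout are OE minus Het in log2(FPKM + 1), which understates the fold change of low genes, and adjusted p-values come from limma over all 11236 genes with Benjamini-Hochberg adjustment. Of the called genes, 402 were at least 2-fold higher on this scale and 300 at least 2-fold lower. Both OE livers lay above all 3 Het livers for 2546 genes (22.7% of those tested) and below them for 2064 (18.4%). The split depended on scaling: after median of ratios scaling, 753 genes were higher (49% of those called, against 60.7% as fitted) and 783 lower. Of 36 gene lists, that of the urea cycle and amino acid breakdown had the most genes higher in OE, and that of monocytes and infiltrating macrophages the most lower. Counts per list stand against the shares over all genes tested, 8.85% higher and 5.72% lower. No list was tested as a set.

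**Figure D1:**
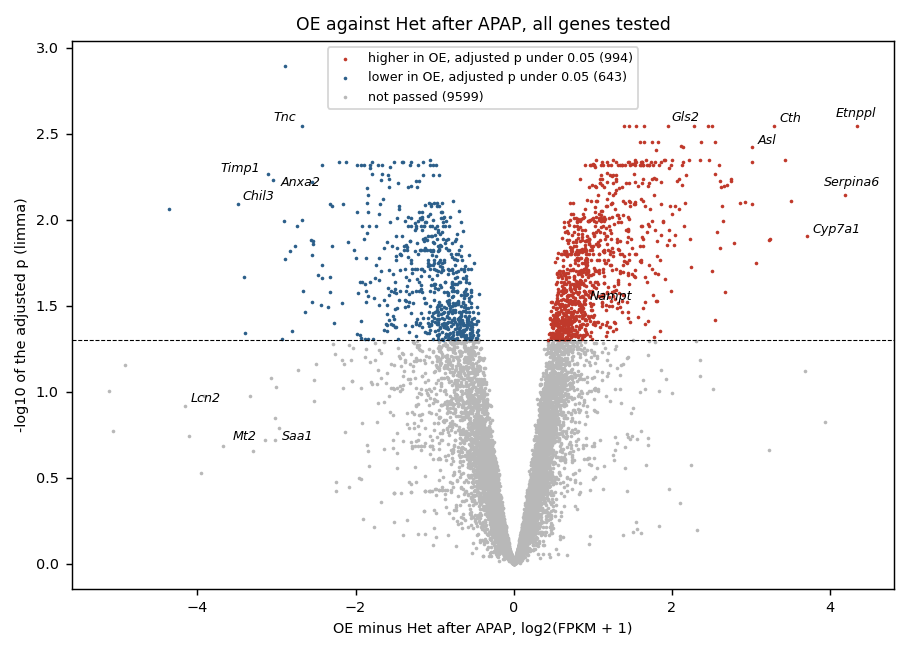
Each point is 1 of 11236 genes, with the OE minus Het difference after APAP in log2(FPKM + 1) on the x axis and the negative log10 of the limma adjusted p on the y axis, and the dashed line at an adjusted p of 0.05. Red points (994) were higher in OE and blue points (643) lower. Lcn2, Mt2 and Saa1 lie far to the left below the line: their differences were large and did not pass.

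The count depended on single livers and on which libraries were fitted. Without OE APAP 1 it fell to 9 genes, of which 5 were among the 1637, with OE APAP 2 then standing alone and assumed to vary like the other groups. Without Het APAP 2 it was 951 genes and without Het APAP 3 it was 722. Fitted on the 5 compared libraries alone it was 111, and on the APAP libraries alone 1, with 2 and 4 residual degrees of freedom. With sequencing lane as the fitted term in place of perfusion, 22 genes passed, 5 higher and 17 lower, of which 7 were among the 1637, while all 1637 kept their sign. When the 300 mg/kg OE liver took the place of OE APAP 1, a setting added after the data were seen, 1588 genes passed, of which 1133 were among the 1637. In the livers not perfused, OE and lane L004 cannot be told apart from Het and lane L005, so the pair of lane L008 (OE APAP 2 and Het APAP 1) gives the only difference within a lane. The pair sets 1 library against 1, from mice of 12 and 11 weeks, so genotype and age cannot be told apart in it. That pair was part of the fit that called the genes, so their sign in it is no independent support. The higher genes had a median difference of 0.61 in the pair and 1.11 in the livers not perfused, and the lower genes had medians of -0.66 and -1.19.

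**Figure D2:**
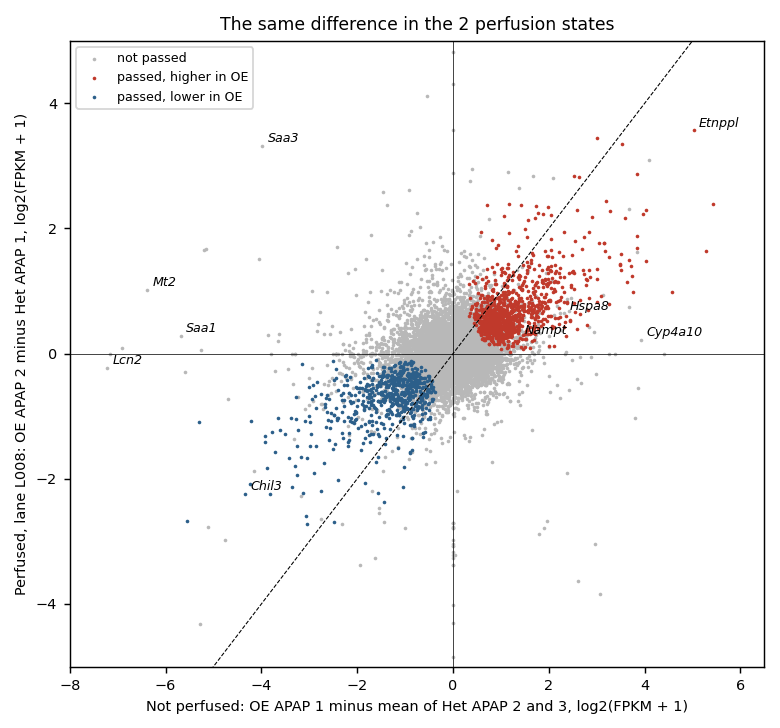
Each point is 1 of 11236 genes, with the difference in livers not perfused (OE APAP 1 minus the mean of Het APAP 2 and 3) on the x axis and the difference in the perfused pair of lane L008 (OE APAP 2 minus Het APAP 1) on the y axis, both in log2(FPKM + 1), and a dashed line where the 2 are equal. Called genes fill the upper right and lower left corners, with medians of 0.61 and -0.66 on the y axis and 1.11 and -1.19 on the x axis. Lcn2, Saa1 and Mt2 lie at the far left near or above 0 on the y axis.

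Among named genes the difference was greatest for Etnppl, a pyridoxal phosphate enzyme that breaks down phosphoethanolamine. It read 196 and 61.6 FPKM in OE livers, against 4.28, 5.35 and 4.77 FPKM in Het livers, a difference of 4.34 ± 0.45 (adjusted p = 0.00285). It was one of few genes to pass without OE APAP 1, at 3.52 with an adjusted p of 0.0493. Serpina6, the plasma carrier of corticosterone, read 68.2 and 60.1 FPKM in OE livers, against 10.7, 0.727 and 0.500 FPKM in Het livers, a difference of 4.19 ± 0.70 (adjusted p = 0.00714). The Het livers themselves differed here, the perfused one reading far above those not perfused. Upp2, a uridine phosphorylase of liver, read 55.3 and 244 FPKM in OE livers, against 21.4, 5.25 and 6.93 FPKM in Het livers (difference 3.24 ± 0.66, adjusted p = 0.013). The higher of its OE readings came from the perfused liver. Under saline Upp2 was uneven in the same way, at 470 FPKM in the perfused OE saline 1 and 60.8 FPKM in OE saline 2, against 108 and 71.2 FPKM in Het livers. Its saline difference was 1.74, without passing (limma adjusted p = 0.927). Slc1a2, a glutamate transporter of the pericentral layer, read 14.4 and 12.5 FPKM in OE livers and 0.840, 0.155 and 0.0190 FPKM in Het livers (difference 3.51 ± 0.60, adjusted p = 0.00777). Inmt, an indolethylamine methyltransferase, read 234 and 100.6 FPKM in OE livers and 50.5, 12.6 and 6.10 FPKM in Het livers (difference 3.06 ± 0.69, adjusted p = 0.0179). The remaining genes of the 15 with the greatest rise were Cyp7a1, Cth, Cyp3a11, Asl, Cyp8b1 and Hpd, described with their pathways, and Slc16a5 (3.01), Keg1 (2.86), Aldh1b1 (2.78) and Gys2 (2.74). Aldh1b1 is a mitochondrial aldehyde dehydrogenase and Gys2 the glycogen synthase of liver. Under saline Aldh1b1 differed by 1.60, without passing (limma adjusted p = 0.921).

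The genes with a large fall included several of macrophages and injury matrix. Chil3, a chitinase-like protein of activated macrophages, read 0.940 and 2.13 FPKM in OE livers, against 13.8, 54.2 and 27.1 FPKM in Het livers (difference -3.49 ± 0.61, adjusted p = 0.0081). Tnc, the injury-matrix protein tenascin C, read 0.217 and 1.23 FPKM in OE livers, against 7.54, 10.5 and 10.9 FPKM in Het livers (difference -2.67 ± 0.31, adjusted p = 0.00285). Ccn2, a matricellular protein that YAP and TGF-beta signalling induce, read 1.81 and 6.58 FPKM in OE livers, against 15.04, 57.1 and 45.8 FPKM in Het livers (difference -2.90 ± 0.55, adjusted p = 0.0102). In all 3 genes OE APAP 1 had the lowest reading of the 5 livers and OE APAP 2 lay between it and the Het livers. Serpina7, the thyroxine-binding globulin, fell too but unevenly, reading 1.58 and 59.3 FPKM in OE livers against 128, 129.6 and 77.5 FPKM in Het livers (difference -3.41 ± 0.79, adjusted p = 0.0215). Also among the 15 with the greatest fall were Timp1, Anxa2, Ctla2a, Mmp12, Lgals3, Ier3 and S100a4, described with their groups, and Slfn4 (-2.83), Thbs1 (-2.67) and Acnat2 (-2.64). None of these genes passed without OE APAP 1.

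**Figure D3:**
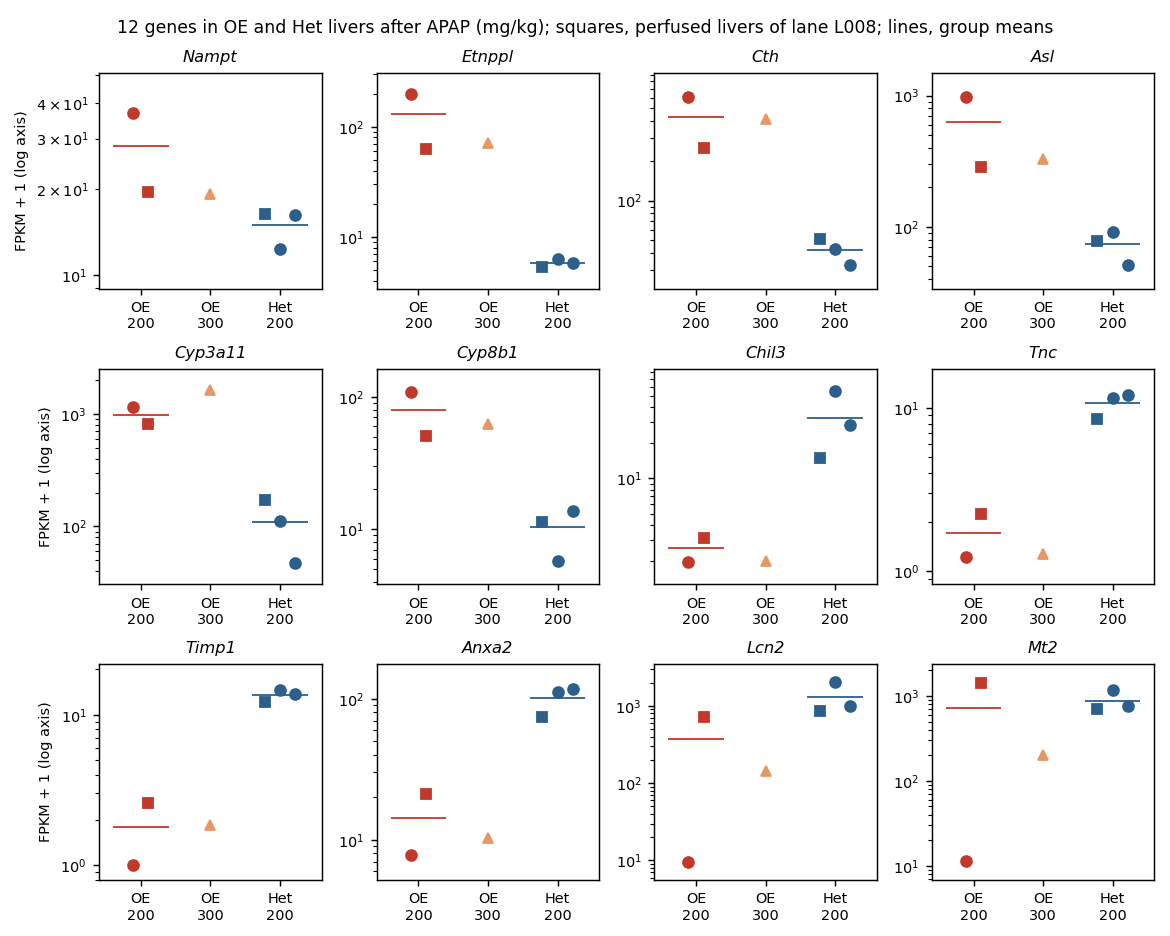
FPKM + 1 on a log axis for 12 genes, with 1 point per liver: red OE at 200 mg/kg, orange OE at 300 mg/kg, blue Het at 200 mg/kg; squares are the perfused livers of lane L008, other symbols livers not perfused, and lines the means of the 200 mg/kg groups. The OE livers lie above the Het livers for Nampt, Etnppl, Cth, Asl, Cyp3a11 and Cyp8b1 and below them for Chil3, Tnc, Timp1 and Anxa2. For Lcn2 and Mt2 the perfused OE liver lies close to or above the Het livers.

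Amino acid breakdown showed the clearest shift of any list. Of 30 genes of the urea cycle and amino acid breakdown, 28 were higher in OE and none lower, with a median difference of 1.85, against 0.03 over all genes tested. All 30 were also above 0 in the lane L008 pair (52.0% of all genes were), where the median was 1.32. Their summed level was 17594 and 11993 FPKM in OE livers, against 4772, 3936 and 3085 FPKM in Het livers. Saline livers read 13859.5 and 16766 FPKM in OE and 12038 and 11624 FPKM in Het, so the sums of OE livers after APAP lay in or near the saline range and those of Het livers well under it. In whole-liver RNA a lower level can mean fewer hepatocytes or less RNA in each, and these cannot be told apart. Without OE APAP 1 none of the 30 passed, and with the 300 mg/kg liver in its place 28 did.

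Within the urea cycle, Cps1, which makes carbamoyl phosphate from ammonia in mitochondria, read 1309.8 and 708 FPKM in OE livers, against 403, 284 and 220.4 FPKM in Het livers (difference 1.74 ± 0.35, adjusted p = 0.0102). The next enzymes rose with it. Ass1, argininosuccinate synthase, read 1666 and 1552 FPKM in OE livers and 426, 274 and 230.4 FPKM in Het livers (difference 2.36 ± 0.31, adjusted p = 0.00355), and Asl, the lyase that follows it, 982 and 285 FPKM in OE livers and 77.1, 91.2 and 50.05 FPKM in Het livers (difference 3.01 ± 0.41, adjusted p = 0.00379). Arg1, the last enzyme of the cycle, was one of the 2 members that did not pass, at 1051 and 1205 FPKM in OE livers and 815, 1117 and 582 FPKM in Het livers (difference 0.46 ± 0.28, adjusted p = 0.286). The groups overlapped there, with Het APAP 2 as high as the OE livers. Sds, serine dehydratase, was the other (difference 1.35 ± 0.54, adjusted p = 0.116).

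Cth, the gamma-lyase that makes cysteine for glutathione synthesis, read 612 and 248 FPKM in OE livers, against 49.8, 41.9 and 31.5 FPKM in Het livers (difference 3.29 ± 0.37, adjusted p = 0.00285). Bhmt, which returns homocysteine to methionine with betaine, read 2566 and 986 FPKM in OE livers, against 288, 287 and 287 FPKM in Het livers (difference 2.54 ± 0.33, adjusted p = 0.00355). The 3 Het livers were nearly equal for Bhmt, while OE APAP 1 was more than 2-fold above OE APAP 2. Mat1a, the S-adenosylmethionine synthetase of adult liver, differed by 2.66 ± 0.46 (adjusted p = 0.00634). Tat (1.84), Hpd (2.74), Hgd (2.36) and Fah (1.29), successive steps of tyrosine breakdown, rose as well. Gls2, the liver glutaminase that feeds ammonia to the urea cycle, differed by 2.45 ± 0.29 (adjusted p = 0.00285) with OE readings of 241 and 235 FPKM, against 47.2, 37.4 and 41.7 FPKM in Het livers. Both OE livers were nearly equal for it.

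The route from tryptophan and nicotinamide to NAD was also higher in OE. Of 23 tested genes of NAD synthesis and salvage, 14 were higher and none lower, with a median difference of 0.89, 0.62 in the lane L008 pair. Their summed level was 2162 and 2159 FPKM in OE livers, against 1104, 948 and 845 FPKM in Het livers, beside 2251 and 2023 FPKM in OE and 2087 and 2071 FPKM in Het livers under saline. The sums of OE livers were within the saline range. Tdo2, the dioxygenase that opens tryptophan, read 835 and 677 FPKM in OE livers, against 407, 331 and 326 FPKM in Het livers (difference 1.09 ± 0.23, adjusted p = 0.0118). Afmid, the kynurenine formamidase that acts next, had the greatest difference of the list, 2.62 ± 0.44 (adjusted p = 0.00649). Kynu, kynureninase, read 53.2 and 68.0 FPKM in OE livers, against 23.4, 14.8 and 18.5 FPKM in Het livers (difference 1.59 ± 0.21, adjusted p = 0.00355). Haao (1.32) and Kmo (0.92) of the same route rose too, while Qprt, which forms the nicotinate nucleotide, did not pass (0.66 ± 0.23, adjusted p = 0.079).

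Naprt, which takes nicotinic acid into NAD, read 36.8 and 29.7 FPKM in OE livers, against 19.1, 13.3 and 15.8 FPKM in Het livers (difference 1.03 ± 0.18, adjusted p = 0.00633). Nadk, the kinase that turns NAD into NADP, differed by 0.97 ± 0.15 (adjusted p = 0.00479). Nnmt, which methylates nicotinamide and so removes it from salvage, was higher in OE as well (1.26 ± 0.37, adjusted p = 0.0394), with readings of 274 and 436 FPKM in OE livers and 124, 232 and 103 FPKM in Het livers. The enzymes tested that complete NAD from its mononucleotide, Nmnat1 (0.46 ± 0.15, adjusted p = 0.0557) and Nmnat3, at 3.14 and 1.89 FPKM in OE livers and 2.65, 2.80 and 2.63 FPKM in Het livers (adjusted p = 0.785), did not pass. Of 19 enzymes that consume NAD, 1 rose and none fell, with a median difference of -0.11. Over all genes tested, 8.85% were higher and 5.72% lower, so a single call in this list does not set it apart. The gene that rose was Sirt3, the mitochondrial deacylase, at 29.7 and 34.2 FPKM in OE livers and 20.8, 14.3 and 12.1 FPKM in Het livers (difference 0.95 ± 0.17, adjusted p = 0.00646). Sirt1, the nuclear deacylase (-0.26 ± 0.16, adjusted p = 0.283), and Parp1, the DNA-damage polymerase (adjusted p = 0.853), did not pass. Parp1 read 9.32 and 9.83 FPKM in OE livers and 12.0, 7.17 and 11.2 FPKM in Het livers, with overlap. None of the genes of these lists passed without OE APAP 1, and with the 300 mg/kg liver in its place 13 NAD synthesis genes and 1 NAD-consuming enzyme were higher.

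**Figure D4:**
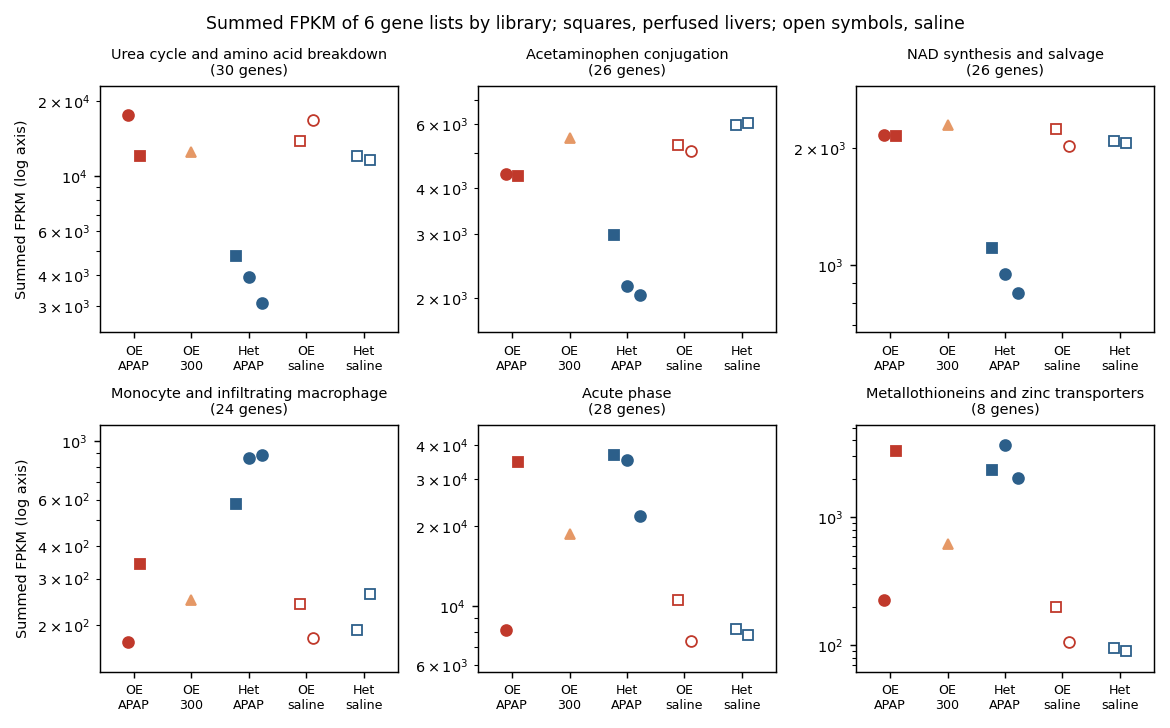
Summed FPKM of 6 gene lists per liver on log axes, for OE and the 300 mg/kg OE liver after APAP, Het after APAP, and OE and Het under saline; squares are perfused livers and open symbols saline. For urea cycle and amino acid breakdown and NAD synthesis the OE livers lie near the saline livers and all Het livers after APAP lie lower, and for conjugation the OE livers lie between the saline livers and the Het livers. Monocyte genes show the reverse order, and for acute-phase and metallothionein genes the perfused OE liver lies among the Het livers.

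Enzymes that conjugate acetaminophen and its reactive product followed the same order. Of 26 tested, 20 were higher in OE and none lower, with a median difference of 1.23 and of 0.72 in the lane L008 pair. Summed, they read 4372 and 4329.7 FPKM in OE livers and 2989, 2156 and 2044 FPKM in Het livers. Ugt2a3, a glucuronosyltransferase, read 141 and 114 FPKM in OE livers, against 36.3, 33.2 and 26.7 FPKM in Het livers (difference 1.95 ± 0.24, adjusted p = 0.00285). Ugt1a6b and Ugt1a9, members of the family that glucuronidates acetaminophen, differed by 1.12 ± 0.29 (adjusted p = 0.0269) and 1.22 ± 0.23 (adjusted p = 0.00808). Their exons are shared with other Ugt1a genes, and the Ugt2b genes are close copies, so the split of reads within each family is uncertain. For sulfation, Sult1a1 read 343 and 263 FPKM in OE livers, against 109, 173 and 118 FPKM in Het livers (difference 1.24 ± 0.24, adjusted p = 0.00957), and Papss2, which makes the sulfate donor, differed by 1.97 ± 0.40 (adjusted p = 0.0115). The glutathione transferases were divided. Gsta3 rose (1.63 ± 0.45, adjusted p = 0.0326), while Gstp1 read 656 and 1244 FPKM in OE livers and 969, 703 and 896 FPKM in Het livers, overlapped and did not pass (adjusted p = 0.965). With the 300 mg/kg liver in place of OE APAP 1, 17 conjugation genes passed, and with OE APAP 2 alone 0 did.

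Of 23 P450 and regulator genes of drug oxidation, 7 were higher and none lower (median 1.13, 0.29 in the lane L008 pair). Cyp2e1, the main enzyme that activates acetaminophen, did not pass: it read 1016 and 446 FPKM in OE livers and 462, 210.4 and 122 FPKM in Het livers (difference 1.61 ± 0.74, adjusted p = 0.169). The perfused Het liver read as high as the perfused OE liver, with a difference of -0.05, against 2.66 in livers not perfused. Cyp1a2, a second activating enzyme, read 16.2 and 49.7 FPKM in OE livers and 70.6, 12.5 and 7.77 FPKM in Het livers (difference 0.31 ± 0.55, adjusted p = 0.741), with Het APAP 1 the highest of the 5. Cyp3a11, which also oxidises acetaminophen, was higher, at 1147 and 807 FPKM in OE livers and 170.2, 110.5 and 46.7 FPKM in Het livers (difference 3.23 ± 0.67, adjusted p = 0.0132). Por, the reductase that passes electrons to all microsomal P450 enzymes, read 74.8 and 90.5 FPKM in OE livers, against 39.6, 38.3 and 30.0 FPKM in Het livers (difference 1.17 ± 0.21, adjusted p = 0.00756). Cyp2f2, a periportal P450, differed by 1.73 ± 0.25 (adjusted p = 0.00461). None of the 23 passed without OE APAP 1, and with the 300 mg/kg liver in its place 10 did.

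Nrf2 targets and glutathione genes did not move as a group. Of 28 tested, 2 were higher and 4 lower, beside 8.85% and 5.72% of all genes tested. The median was 0.11, and -0.10 after quantile normalisation. Gclc, the catalytic subunit of glutathione synthesis, read 82.7 and 52.4 FPKM in OE livers and 70.0, 85.0 and 80.0 FPKM in Het livers (difference -0.18 ± 0.25, adjusted p = 0.675). Nqo1, a quinone reductase, was low in all 5 livers (7.45 and 4.06 FPKM in OE, 8.51, 5.86 and 3.06 FPKM in Het). The members that passed were Cat, catalase, which rose (1.45 ± 0.35, adjusted p = 0.0204), Abcc2, the bile canaliculus exporter of glutathione conjugates, which rose (0.99 ± 0.25), and Srxn1 (-0.89), Pgd (-1.29), G6pdx (-0.96) and Tkt (-0.76), which fell. Srxn1 reduces oxidised peroxiredoxins, and the other 3 belong to the pentose phosphate pathway. Hmox1, haem oxygenase 1, read 18.6 and 30.7 FPKM in OE livers and 36.0, 89.6 and 92.9 FPKM in Het livers without passing (-1.41 ± 0.53, adjusted p = 0.0964).

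Bile acid synthesis and transport gave 14 higher and no lower genes among 22 (median 1.10, 0.68 in the lane L008 pair). Cyp7a1, which catalyses the limiting step in making bile acids, read 58.7 and 7.27 FPKM in OE livers, against 1.67, 0.477 and 0.578 FPKM in Het livers (difference 3.70 ± 0.73, adjusted p = 0.0125). It was under 1 FPKM in the Het livers not perfused. Cyp8b1, the sterol hydroxylase that sets the share of cholic acid, read 107 and 49.9 FPKM in OE livers, against 10.4, 4.78 and 12.8 FPKM in Het livers (difference 3.01 ± 0.43, adjusted p = 0.00461). Akr1d1, a bile acid reductase, differed by 2.59 ± 0.40 (adjusted p = 0.00479). Among transporters, Slc10a1, which takes bile acids up from blood, read 168 and 82.8 FPKM in OE livers and 57.1, 22.7 and 39.8 FPKM in Het livers (difference 1.66 ± 0.41, adjusted p = 0.0216), and Abcb11, which exports them into bile, 66.0 and 106 FPKM in OE livers and 40.1, 20.0 and 22.8 FPKM in Het livers (difference 1.52 ± 0.37, adjusted p = 0.0212). Nr1h4, the bile acid receptor FXR (0.63 ± 0.20, adjusted p = 0.0567), and its target Nr0b2 (0.28 ± 0.25, adjusted p = 0.474) did not pass. With the 300 mg/kg liver in place of OE APAP 1, 14 of the list passed, and with OE APAP 2 alone 0 did.

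Cyp3a11 and Cyp8b1 are targets of HNF4A, the nuclear receptor at the centre of the hepatocyte programme, and their promoters are shown because both hold the 9-letter motif CAAAGTCCA, a form of the HNF4A site, printed in capitals. The sequences are RefSeq's for GRCm38.p6 and run 5′ to 3′ on the strand of the gene, with 250 bases before the transcription start and 50 after it. Cyp3a11 lies at chr5:145879805-145880104 on the minus strand, with the motif 109 bases before the start, and Cyp8b1 at chr9:121916256-121916555 on the minus strand, with the motif 67 bases before it. Both genes were chosen after their values were seen.
Cyp3a11: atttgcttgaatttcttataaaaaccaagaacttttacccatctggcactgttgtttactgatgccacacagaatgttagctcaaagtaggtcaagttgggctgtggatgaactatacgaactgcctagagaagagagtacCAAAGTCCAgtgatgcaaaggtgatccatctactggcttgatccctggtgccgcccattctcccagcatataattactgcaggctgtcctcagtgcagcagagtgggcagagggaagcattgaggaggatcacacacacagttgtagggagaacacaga
Cyp8b1: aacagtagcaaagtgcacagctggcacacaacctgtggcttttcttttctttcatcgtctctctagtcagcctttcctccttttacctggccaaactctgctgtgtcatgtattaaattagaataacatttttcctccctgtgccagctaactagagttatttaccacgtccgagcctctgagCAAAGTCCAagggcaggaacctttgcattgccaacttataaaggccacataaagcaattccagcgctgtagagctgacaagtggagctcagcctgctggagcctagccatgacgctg
Searched on both strands of 300 bases, the motif stood in 13 of 777 promoters of genes higher in OE (1.67%), against 0.668% of all tested genes with a promoter in the table and 0.62% of genes lower in OE. It overlapped no other motif searched in these promoters. A match of letters is a description and does not show that the factor bound there. Hnf4a itself read 136 and 114 FPKM in OE livers, against 69.7, 60.5 and 77.5 FPKM in Het livers, a rise of 0.88 ± 0.21 (adjusted p = 0.0193).

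Hnf4a was one of 8 hepatocyte transcription factors of 19 that were higher, with none lower (median 0.63). Cebpa, which maintains hepatocyte metabolism, read 82.8 and 43.6 FPKM in OE livers, against 35.2, 23.9 and 35.9 FPKM in Het livers (difference 0.97 ± 0.25, adjusted p = 0.0262). Nr1h3, the oxysterol receptor LXR alpha, differed by 0.67 ± 0.14 (adjusted p = 0.0131) and Foxa3, a forkhead factor of liver, by 0.89 ± 0.23 (adjusted p = 0.0258). Only 3 of the list were higher when the 300 mg/kg liver replaced OE APAP 1, and 0 with OE APAP 2 alone.

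Genes of the hepatocyte zones gave different counts. Of 19 periportal genes, 12 were higher and none lower, with a median difference of 1.35 that was similar in the lane L008 pair (1.22). Of 17 pericentral genes, 6 were higher and 1 lower, with a median of 0.88 as fitted, 1.19 in those not perfused and -0.26 in the lane L008 pair. The difference between the lists was not tested. Glul, glutamine synthetase of the innermost pericentral layer, read 70.5 and 56.3 FPKM in OE livers, against 22.1, 17.1 and 15.3 FPKM in Het livers (difference 1.81 ± 0.38, adjusted p = 0.0132). Oat, ornithine aminotransferase of the same layer, read 308 and 235 FPKM in OE livers, against 68.3, 56.3 and 20.5 FPKM in Het livers (difference 2.63 ± 0.48, adjusted p = 0.00832). In the lane L008 pair Glul differed by 1.31 and Oat by 1.77. Cyp2c50, of the broader pericentral zone, did not pass (1.26 ± 0.70, adjusted p = 0.25), with -0.58 in the lane L008 pair and 2.43 in livers not perfused. The lower gene was Lect2, a secreted chemotactic factor, at 22.3 and 52.7 FPKM in OE livers and 123, 74.8 and 64.4 FPKM in Het livers (difference -1.32 ± 0.35, adjusted p = 0.0302). Without OE APAP 1, of these lists only Etnppl passed, and with the 300 mg/kg liver in its place 12 periportal genes and 5 pericentral genes were higher.

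Fatty acid oxidation and Ppara targets gave 20 higher genes and 1 lower of 33 (median 0.90, 0.55 in the lane L008 pair). Cpt1a, which commits fatty acids to mitochondria, read 100.2 and 81.0 FPKM in OE livers, against 35.5, 31.4 and 31.1 FPKM in Het livers (difference 1.45 ± 0.22, adjusted p = 0.00461). Cyp4a14, a fatty acid hydroxylase that Ppara induces, was uneven between the OE livers, reading 1350.3 and 141 FPKM in OE livers, against 70.9, 107 and 91.9 FPKM in Het livers (difference 2.54 ± 0.71, adjusted p = 0.0381). OE APAP 1 was far above the other 4 livers, and OE APAP 2 lay little above the highest Het liver. Cyp4a genes are close copies of each other, which makes the split of reads among them uncertain. The lower gene was Pdk4, a kinase that turns off pyruvate dehydrogenase in fasting (-1.25 ± 0.28, adjusted p = 0.0152). Cyp4a12a, a male-biased member of that family, read 19.5 and 34.0 FPKM in OE livers, against 8.23, 6.90 and 9.41 FPKM in Het livers (difference 1.54 ± 0.24, adjusted p = 0.00479). It passed without OE APAP 1, alone of the 33, at 2.00 with an adjusted p of 0.0282, and with the 300 mg/kg liver in place of OE APAP 1 13 members were higher.

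Nuclear-encoded subunits of the respiratory chain moved by less: 19 of 27 were higher and none lower, with a median of 0.74 and 0.53 in the lane L008 pair, where all 27 were above 0. Sdhb, a subunit of succinate dehydrogenase, read 173 and 156 FPKM in OE livers, against 84.6, 82.0 and 52.8 FPKM in Het livers (difference 1.16 ± 0.24, adjusted p = 0.0112). Atp5a1, of the ATP synthase, differed by 0.89 ± 0.24 (adjusted p = 0.0293) and Uqcrfs1, of complex III, by 0.90 ± 0.18 (adjusted p = 0.0115). The 8 that did not pass included Ndufa4, a small subunit (0.26 ± 0.23, adjusted p = 0.476), for which Het APAP 2 read above both other Het livers. None passed without OE APAP 1, and 17 were higher with the 300 mg/kg liver in its place.

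Genes of cells that enter the injured liver were lower in OE. Of 21 monocyte and infiltrating macrophage genes, 14 were lower and none higher, with a median of -1.60, and all 21 lay below 0 in the lane L008 pair (48.0% of all genes did), where the median was -0.83. Summed over 24 genes, the list read 173 and 342 FPKM in OE livers, against 579, 866 and 885 FPKM in Het livers. Saline livers read 239.8 and 178 FPKM in OE and 192 and 263 FPKM in Het, a range that OE APAP 1 lay just under and OE APAP 2 above. Ccr2, the chemokine receptor that brings monocytes out of the bone marrow, read 1.06 and 1.59 FPKM in OE livers, against 4.29, 7.71 and 8.31 FPKM in Het livers (difference -1.70 ± 0.42, adjusted p = 0.0224). Its ligand Ccl2 read 4.59 and 12.4 FPKM in OE livers and 17.8, 23.9 and 38.2 FPKM in Het livers and did not pass (-1.64 ± 0.65, adjusted p = 0.116). Ly6c2, the surface marker of inflammatory monocytes, differed by -1.60 ± 0.35 (adjusted p = 0.0135). Lgals3, the lectin galectin 3 of maturing macrophages, read 2.74 and 13.04 FPKM in OE livers, against 40.9, 42.5 and 53.9 FPKM in Het livers (difference -2.76 ± 0.58, adjusted p = 0.0143). S100a4, of monocytes and fibroblasts, differed by -2.67 ± 0.50 (adjusted p = 0.00997). None passed without OE APAP 1, and 10 were lower with the 300 mg/kg liver in its place. The part that these cells' RNA plays in the lower hepatocyte readings of Het livers was not tested.

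Resident macrophage genes had no common direction across the livers. Their median was 0.14 in the lane L008 pair and -0.36 in livers not perfused, and fitted differences ran from -2.52 to 0.67. Of 18 Kupffer cell genes 1 was higher and 1 lower (median -0.08), and the summed level was 339 and 561 FPKM in OE livers and 493, 461 and 593 FPKM in Het livers, with overlap. Clec4f, a lectin of mouse Kupffer cells, read 26.2 and 43.9 FPKM in OE livers and 30.4, 21.1 and 20.5 FPKM in Het livers (difference 0.40 ± 0.28, adjusted p = 0.363). The genes that passed were Nr1h3, which hepatocytes express too, and Cdh5, an adhesion protein of endothelium (-1.41 ± 0.21, adjusted p = 0.00461), at 5.94 and 7.02 FPKM in OE livers and 14.9, 18.6 and 25.0 FPKM in Het livers.

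Of 10 neutrophil genes 4 were lower and none higher (median -1.43, -0.43 in the lane L008 pair). Csf3r, the receptor for granulocyte colony-stimulating factor, read 0.507 and 1.21 FPKM in OE livers, against 5.13, 4.36 and 7.84 FPKM in Het livers (difference -1.90 ± 0.40, adjusted p = 0.0129). S100a8, the abundant calcium-binding protein of neutrophils, read 1.72 and 28.5 FPKM in OE livers and 35.1, 205 and 83.4 FPKM in Het livers and did not pass (-3.33 ± 1.24, adjusted p = 0.105). Its difference was -0.29 in the lane L008 pair and -5.60 in livers not perfused. None of the 10 passed without OE APAP 1, and with the 300 mg/kg liver in its place 3 did.

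Matrix and stellate cell genes gave 12 lower and no higher members of 30 (median -0.79, -0.53 in the lane L008 pair). Timp1, the inhibitor of matrix proteases that marks liver injury, was listed at 0 in OE APAP 1 and read 1.59 FPKM in OE APAP 2, against 11.2, 13.6 and 12.8 FPKM in Het livers (difference -3.11 ± 0.49, adjusted p = 0.00541). Col4a1, a collagen of basement membranes, read 8.67 and 15.5 FPKM in OE livers, against 31.4, 35.6 and 43.4 FPKM in Het livers (difference -1.57 ± 0.28, adjusted p = 0.00647). Acta2, the smooth muscle actin of activated stellate cells, differed by -1.32 ± 0.39 (adjusted p = 0.0449), with 3.47 and 7.67 FPKM in OE livers and 11.7, 14.0 and 17.5 FPKM in Het livers. The fibrillar collagens Col1a1 (-0.95 ± 0.47, adjusted p = 0.199) and Col3a1 (-0.94 ± 0.51, adjusted p = 0.243) did not pass, nor did Lrat, which marks quiescent stellate cells (1.02 ± 0.38, adjusted p = 0.0948). Mmp12, the elastase of macrophages, fell (-2.81 ± 0.81, adjusted p = 0.0445). None of the 30 passed without OE APAP 1, and 11 were lower with the 300 mg/kg liver in its place.

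Among epithelial genes that rise in injury, 4 of 9 cholangiocyte and progenitor-like genes were lower and none higher (median -1.39). Krt8, a keratin that hepatocytes raise under stress, read 140.1 and 227 FPKM in OE livers, against 462, 996 and 571 FPKM in Het livers (difference -1.84 ± 0.33, adjusted p = 0.0072), and its partner Krt18 189.6 and 224 FPKM in OE livers and 477, 1099.95 and 619 FPKM in Het livers (difference -1.70 ± 0.33, adjusted p = 0.00922). Sox9, a factor of bile ducts and of hepatocytes in repair, read 1.13 and 0.873 FPKM in OE livers, against 1.80, 3.96 and 4.25 FPKM in Het livers (difference -0.98 ± 0.22, adjusted p = 0.0163). Of these 9 genes none passed without OE APAP 1, and 4 were lower with the 300 mg/kg liver in its place.

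Anxa2, a membrane-binding annexin, and Ctla2a, a cysteine protease inhibitor, were among the 15 genes with the greatest fall. Anxa2 read 6.76 and 19.9 FPKM in OE livers, against 73.1, 111 and 117 FPKM in Het livers (difference -3.04 ± 0.49, adjusted p = 0.0059). Ctla2a read 1.42 and 3.52 FPKM in OE livers, against 10.3, 37.5 and 34.4 FPKM in Het livers (difference -2.89 ± 0.63, adjusted p = 0.0169). Their promoters are shown because each holds the motif TGANTCA of AP-1, the Fos and Jun dimer of injury responses, in capitals: 95 bases before the start in Anxa2 (chr9:69453433-69453732, plus strand) and 129 bases before it in Ctla2a (chr13:60936576-60936875, minus strand). Both were chosen after their values were seen, and the sequences are RefSeq's for GRCm38.p6 over the same window.
Anxa2: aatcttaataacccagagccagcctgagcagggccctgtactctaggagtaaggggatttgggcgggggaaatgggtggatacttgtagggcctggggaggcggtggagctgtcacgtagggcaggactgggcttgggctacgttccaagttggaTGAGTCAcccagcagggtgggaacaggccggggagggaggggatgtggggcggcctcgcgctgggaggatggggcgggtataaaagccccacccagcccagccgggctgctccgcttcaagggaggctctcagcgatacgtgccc
Ctla2a: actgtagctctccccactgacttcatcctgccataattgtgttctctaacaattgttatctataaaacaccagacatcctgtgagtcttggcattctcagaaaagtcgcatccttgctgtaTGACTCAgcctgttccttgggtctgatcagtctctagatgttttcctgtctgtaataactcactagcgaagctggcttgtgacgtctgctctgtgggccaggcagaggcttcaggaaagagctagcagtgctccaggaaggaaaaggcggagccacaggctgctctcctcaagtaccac
On both strands of 300 bases the motif stood in 47 of 484 promoters of genes lower in OE (9.71%), 7.46% of those of genes higher in OE, 6.42% of all tested genes with a promoter and 8.97% of all 27025 promoters in the table. It overlapped no other motif searched in these 2 promoters, and the match is a description only.

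Subunits of AP-1 and other immediate early genes were partly lower: 5 of 18 passed, all lower (median -0.71, -0.03 in the lane L008 pair). Atf3, a stress-induced factor, read 4.59 and 7.99 FPKM in OE livers, against 19.3, 39.9 and 29.5 FPKM in Het livers (difference -1.98 ± 0.37, adjusted p = 0.00896). Ier3, an early survival gene, read 0.592 and 1.10 FPKM in OE livers, against 5.66, 21.1 and 12.2 FPKM in Het livers (difference -2.73 ± 0.53, adjusted p = 0.0109). Klf6 (-1.85), Fosl1 (-1.23) and Ier5 (-0.82) fell too. Jun (-1.10 ± 0.44, adjusted p = 0.112) and Fos (-1.08 ± 0.42, adjusted p = 0.105) did not pass. None passed without OE APAP 1, and 6 were lower with the 300 mg/kg liver in its place.

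Among p53 targets, 3 of 17 were lower and none higher (median -0.32), where 5.72% of all genes tested were lower and 8.85% higher. Cdkn1a, the cell cycle inhibitor p21, read 1.24 and 2.56 FPKM in OE livers, against 6.12, 19.4 and 14.8 FPKM in Het livers (difference -2.16 ± 0.39, adjusted p = 0.00808). Bax, a pore-forming death protein, read 8.87 and 10.5 FPKM in OE livers, against 18.0, 21.8 and 16.0 FPKM in Het livers (difference -0.89 ± 0.21, adjusted p = 0.0172). Mdm2, the ligase that limits p53, did not pass (-0.81 ± 0.36, adjusted p = 0.153). Of 15 genes of DNA replication and mitosis 4 were lower and none higher (median -0.44), all of them subunits of the replication helicase. Mcm6 read 1.25 and 2.24 FPKM in OE livers, against 5.08, 6.32 and 7.97 FPKM in Het livers (difference -1.49 ± 0.38, adjusted p = 0.0268), and Mcm2 differed by -0.95 ± 0.21 (adjusted p = 0.015). Cdk1, the mitotic kinase, was at 1.08 and 1.03 FPKM in OE livers and 1.65, 0.873 and 1.23 FPKM in Het livers. None of these passed without OE APAP 1. With the 300 mg/kg liver in its place 3 p53 targets were lower and 1 higher, and 1 replication gene was lower and 1 higher.

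Chemokines and cytokines gave 3 lower and no higher genes of 20, where 14.6% of all genes tested were called and 5.72% were lower. The count called is thus near that over all genes. The median was -0.15, and near 0 in the lane L008 pair (0.05). Ccl7, a monocyte attractant, read 1.11 and 2.58 FPKM in OE livers, against 8.92, 17.9 and 13.8 FPKM in Het livers (difference -2.35 ± 0.62, adjusted p = 0.0322). Cxcl14, a chemokine of epithelium, read 0.174 and 0.738 FPKM in OE livers, against 6.03, 4.95 and 5.39 FPKM in Het livers (difference -2.21 ± 0.33, adjusted p = 0.00461). Cxcl1, a neutrophil attractant, did not pass, and OE APAP 2 had its highest reading: it read 35.7 and 186 FPKM in OE livers and 47.1, 83.0 and 53.7 FPKM in Het livers (difference 0.37 ± 0.73, adjusted p = 0.775). None passed without OE APAP 1, and 3 were lower with the 300 mg/kg liver in its place.

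Acute-phase genes split the OE livers. Summed over 28 genes, they read 8160.5 and 34558 FPKM in OE livers, against 36663, 35224 and 21686 FPKM in Het livers, beside 10506 and 7385 FPKM in OE and 8196 and 7779 FPKM in Het livers under saline. OE APAP 1 was thus at the saline level and OE APAP 2 at the level of Het livers, and the 300 mg/kg OE liver at 18635 FPKM stood between them. These sums lack 5 of the 33 genes of the list, left out as failed estimates, among them the abundant Hpx, Fga, Fgb and Serpina3k. Of the 28 tested, 4 were lower and none higher, beside 5.72% lower and 8.85% higher over all genes tested. The median was -0.73 as fitted and 0.03 in the lane L008 pair. Lcn2, the siderophore-binding lipocalin, read 8.57 and 725 FPKM in OE livers and 849.7, 2034 and 1002 FPKM in Het livers (difference -4.15 ± 1.63, adjusted p = 0.121), with -0.23 in the lane L008 pair and -7.22 in livers not perfused. Saa1, a serum amyloid, read 39.5 and 5808 FPKM in OE livers and 4769, 5118 and 837 FPKM in Het livers (difference -3.02 ± 1.43, adjusted p = 0.19), and its close copy Saa2 cannot be fully separated from it. Neither passed. The members that did were Cp, the copper protein ceruloplasmin (-1.32 ± 0.33, adjusted p = 0.0223), Fgg, a fibrinogen chain (-1.27 ± 0.34, adjusted p = 0.0303), Apcs, a pentraxin (-1.88 ± 0.57, adjusted p = 0.0493), and Serpina3n, an antichymotrypsin (-1.78 ± 0.54, adjusted p = 0.0496). None of them passed without OE APAP 1, and with the 300 mg/kg liver in its place 2 members were higher and 2 lower.

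Metallothioneins, the zinc-binding proteins that acetaminophen induces, showed the same split. Mt1 read 131 and 1757 FPKM in OE livers and 1525, 2357 and 1179 FPKM in Het livers (difference -1.92 ± 0.84, adjusted p = 0.152), and Mt2 read 10.3 and 1425 FPKM in OE livers and 701, 1170.1 and 761 FPKM in Het livers (difference -3.14 ± 1.48, adjusted p = 0.19). In the lane L008 pair the differences were 0.20 and 1.02, above 0, and in livers not perfused -3.66 and -6.38. No gene of this list of 8 passed.

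Interferon-response genes had medians below 0 with and without the drug. After APAP 5 of 25 were lower and none higher, with a median of -0.64, and under saline the median was -0.59 with none passing. Isg15, a ubiquitin-like protein, read 2.39 and 4.03 FPKM in OE livers, against 15.8, 20.2 and 21.7 FPKM in Het livers (difference -2.29 ± 0.48, adjusted p = 0.0143), and differed by -1.12 under saline. Oasl2, an interferon-induced antiviral protein, differed by -1.65 ± 0.30 (adjusted p = 0.00758) after APAP. Usp18, which removes Isg15, differed by -1.37 ± 0.33 (adjusted p = 0.0215) after APAP and by -1.35 under saline. None passed without OE APAP 1, and 5 were lower with the 300 mg/kg liver in its place.

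Low readings of cholesterol synthesis genes came from 1 OE liver. Of 24 genes 3 were lower and none higher, beside 5.72% lower and 8.85% higher over all genes tested. The median was -1.001, and -0.31 in the lane L008 pair. The sum was 537 and 1996 FPKM in OE livers, against 2313, 1492 and 1296 FPKM in Het livers. The low sum was that of OE APAP 1, and OE saline 2 of the same lane read 765 FPKM, against 2505 FPKM in OE saline 1. The 300 mg/kg OE liver, also of lane L004, read 1907 FPKM, and the cause of the low sums was not tested. Idi1, an isopentenyl isomerase, read 12.6 and 81.3 FPKM in OE livers, against 136, 125 and 85.8 FPKM in Het livers (difference -1.95 ± 0.47, adjusted p = 0.0229). Sqle, squalene epoxidase, read 7.005 and 46.7 FPKM in OE livers and 65.7, 54.7 and 46.4 FPKM in Het livers without passing (-1.64 ± 0.50, adjusted p = 0.0511). With the 300 mg/kg liver in place of OE APAP 1 none was lower and 1 was higher, and with OE APAP 2 alone 0 passed.

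Genes of stress responses and of protein folding gave calls in both directions, where 14.6% of all genes tested were called. In the list for the integrated stress response and for stress of the endoplasmic reticulum, of 30 genes 2 were higher and 2 lower (median 0.12, -0.14 after quantile normalisation). Atf5, a stress-induced factor that hepatocytes express at rest, read 124 and 84.2 FPKM in OE livers, against 36.2, 29.5 and 35.2 FPKM in Het livers (difference 1.61 ± 0.24, adjusted p = 0.00461), and Shmt2, a mitochondrial enzyme of serine use, rose by 0.52 ± 0.16 (adjusted p = 0.0463). Ppp1r15a, a phosphatase subunit of the stress response (-1.06 ± 0.25, adjusted p = 0.0193), and Psat1, of serine synthesis (-1.20 ± 0.21, adjusted p = 0.00597), fell. Ddit3, the factor CHOP, at 42.9 and 10.8 FPKM in OE livers and 21.9, 28.2 and 24.3 FPKM in Het livers, did not pass (adjusted p = 0.985), nor did Gdf15, a stress hormone, at 3.80 and 3.32 FPKM in OE livers and 2.97, 10.5 and 4.96 FPKM in Het livers (-0.43 ± 0.36, adjusted p = 0.448). Of 17 heat shock genes 1 was higher and 2 lower (median 0.50). Hspa8, the constitutive chaperone Hsc70, read 1926 and 494 FPKM in OE livers and 316, 326 and 458 FPKM in Het livers and did not pass (1.60 ± 0.61, adjusted p = 0.101), the high reading being that of OE APAP 1. Hspa1a, the inducible chaperone, fell (-2.42 ± 0.37, adjusted p = 0.00479), with 0.103 and 0.799 FPKM in OE livers and 5.78, 8.06 and 6.55 FPKM in Het livers. None of these passed without OE APAP 1. With the 300 mg/kg liver in its place the stress list had 1 higher and 3 lower members, and the heat shock list 1 and 2.

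**Figure D5:**
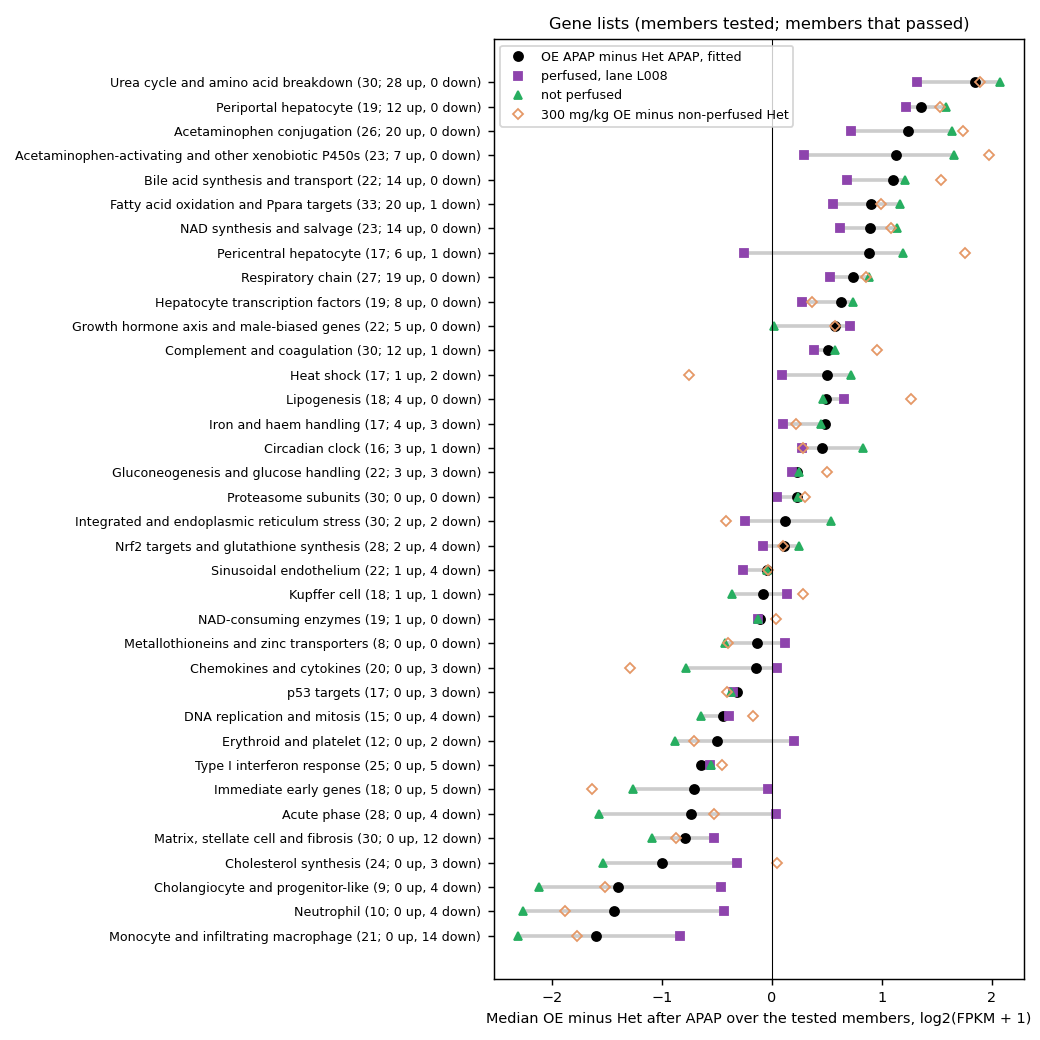
Medians of the OE minus Het difference after APAP, in log2(FPKM + 1), over the tested members of 36 gene lists, for OE APAP minus Het APAP as fitted by limma on all 17 libraries (black circles), the perfused pair of lane L008 (purple squares), livers not perfused (green triangles) and the 300 mg/kg OE liver minus the Het livers not perfused (orange diamonds); the numbers after each name are members tested and called. Urea cycle and amino acid breakdown lies highest at 1.85 and monocyte genes lowest at -1.60. For pericentral, acute-phase and immediate early genes the squares lie near 0 or on the other side of it.

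The 300 mg/kg OE liver was set beside the same 3 Het livers by which the genes had been called, so its order against them is a description and no independent support. Of the 994 genes higher in OE it read above all 3 Het livers for 910, and of the 643 lower genes it read below all 3 for 582. Over all genes tested it read above all 3 Het livers for 36.7% and below all 3 for 36.8%. It shares its lane and perfusion state with OE APAP 1, so lane and genotype cannot be told apart in it either. By list, it lay above every Het liver for all 30 amino acid genes, all 27 respiratory subunits and 22 of 23 NAD synthesis genes, and below every Het liver for 19 of 21 monocyte genes. For acute-phase genes it lay below every Het liver in 14 of 28 and above in 3. Serpina6 read 75.3 FPKM, Cyp3a11 1623 FPKM and Chil3 0.971 FPKM in this liver, each on the OE side.

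Under saline the same labels gave 1 gene of the 11236 (0.0089%) at an adjusted p under 0.05 by limma, and 591 at an unadjusted p under 0.05. That gene was Gm6472, a predicted gene outside the rule for named genes and chosen after its value was seen, lower in OE by -2.50 ± 0.30 (adjusted p = 0.0263). It was lower after APAP as well, at 2.68 and 2.82 FPKM in OE livers and 22.0, 40.3 and 22.4 FPKM in Het livers (difference -2.89 ± 0.27, adjusted p = 0.00127). The genes higher in OE after APAP had a median saline difference of 0.02 and the lower ones also 0.02. The difference between the APAP and saline contrasts, tested gene by gene in the same fit, passed for 2 genes (0.0178%), with 2105 at an unadjusted p under 0.05. Akr1c14, a hydroxysteroid dehydrogenase, read 113 and 85.3 FPKM in OE livers after APAP, against 39.6, 30.5 and 37.3 FPKM in Het livers, and 114 and 134 FPKM in OE livers under saline, against 231 and 222 FPKM in Het livers. Its difference was 1.46 after APAP and -0.92 under saline, 2.38 ± 0.28 apart (adjusted p = 0.0195). Nat8f5, an acetyltransferase of the Nat8 family, read 9.53 and 5.94 FPKM in OE livers after APAP, against 2.45, 2.83 and 2.27 FPKM in Het livers, and 5.02 and 17.4 FPKM in OE livers under saline, against 25.7 and 25.6 FPKM in Het livers. It differed by 1.39 after APAP and -1.64 under saline, 3.03 ± 0.41 apart (adjusted p = 0.0452). Neither gene passed without OE APAP 1, where the differences were 2.13 (adjusted p = 0.111) and 3.03 (adjusted p = 0.229). For all other genes, a difference past the threshold after APAP and not under saline was not shown to differ between the treatments.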

How the data were processed

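RNA from whole mouse livers was sequenced as paired-end reads (2 x 101 bases) after a TruSeq Stranded Total RNA preparation, per the labels' protocols. The FPKM values were made by the authors and deposited as 1 table of genes by library, with no counts. The submitters' processing notes name bcl2fastq 2.17.1.14, TopHat2 2.0.9, Cufflinks 2.2.1, Cuffdiff and GRCm38 p5, without roles, and the annotation and the Cuffdiff version are not given in the sources used here. FPKM are relative, so a few abundant genes can lower all others in a library.

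Values were taken as log2(FPKM + 1) and fitted with limma 3.58.1 (R 4.3.3, statmod 1.5.0) on all 17 libraries, with 8 group means, a perfusion term and 8 residual degrees of freedom, a trended and robust prior, and Benjamini-Hochberg adjustment over the 11236 genes that averaged 1 FPKM or more in the 5 compared libraries. A gene passed at an adjusted p under 0.05. Errors after ± are standard errors. As failed estimates, 108 genes listed at 0 in whole blocks of libraries though at 10 FPKM or more elsewhere, and 6 neighbours within 100 kb, were left out. Fragment depths were recovered from steps in the FPKM, of which 94.5% to 97.0% were whole within 0.1 fragments, and they cover counting error only. The code of the fit was tried on simulated data drawn with the spread of the saline libraries and no lane effect. That trial cannot speak to the calls after APAP. Tables were handled in Python 3.11.15 with pandas 2.3.3, and figures drawn with matplotlib 3.10.9.

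The libraries compared and the 37 gene lists were chosen with earlier results of these data known. Genes were named by rule: Nampt, a set of 12 marker genes of this injury, the 15 largest differences in each direction among called genes of at least 5 FPKM that did not overlap and had the same sign with and without perfusion, and at most 4 genes per list by p. Some genes that the rule names are not reported here. Other genes were named for their place in a pathway after their values were seen. Multigene families (Saa, Cyp2d, Cyp4a, Ugt2b, Ugt1a, Gstp, Serpina3, Hba) share reads and are uncertain. Alternatives changed the covariates, samples, pseudocount, filter, scaling and prior, and left out each of the 5 compared libraries in turn.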

Additional observations from a re-analysis of the deposited data

Results flagged for a closer look

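The differences between OE and Het after APAP and under saline were themselves unequal for 2 genes, by the test of the difference in the same limma fit with Benjamini-Hochberg adjustment. For Akr1c14 the difference after APAP exceeded that under saline by 2.38 ± 0.28 log2 units (adjusted p = 0.0195), with both OE livers above all 3 Het livers after APAP and both OE livers below both Het livers under saline. For Nat8f5 it exceeded it by 3.03 ± 0.41 log2 units (adjusted p = 0.0452), with the same order of the livers. Neither passed without OE APAP 1 (2.13 with an adjusted p of 0.111 for Akr1c14, 3.03 with an adjusted p of 0.229 for Nat8f5). Akr1c14 also did not pass without lane L004 (adjusted p = 0.0672). Nat8f5 also did not pass with no perfusion term (adjusted p = 0.0629), a pseudocount of 5 (0.065), no filter (0.205), median of ratios scaling (0.0519), no trend and no robust prior (0.055), or the 300 mg/kg liver in place of OE APAP 1 (0.102), and with at least 5 FPKM it was not tested.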

How the results depend on the processing

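All 1637 called genes that could be tested kept their sign under every alternative other than 1 added later, while the number called did not hold. It was 22 with lane in place of perfusion, 111 from the 5 libraries alone, 1 from the APAP libraries alone, 985 with no filter, and 3 without lane L004 (0 of them among the 1637), and leaving out 1 library each gave 9 to 2057 (9 without OE APAP 1, 722 without Het APAP 3, 951 without Het APAP 2). For the 5 libraries alone and the APAP libraries alone the residual degrees of freedom were 2 and 4. Of the called genes, 60.7% were higher as fitted, 51.9% after quantile normalisation, 49% after median of ratios scaling, 49.9% with no filter, 73.5% with at least 5 FPKM and 22.7% with lane. The saline count of 1 became 9 with lane, 0 with a pseudocount of 5 or no filter, 12 with failed estimates kept, 20 without lane L004, and 0 to 2 leaving out 1 library. The difference of differences, 2 genes, became 4 without the perfusion term, 31 with lane, 115 with the 300 mg/kg liver counted as OE APAP, 1 with a pseudocount of 5, 4 with at least 5 FPKM, 1 after median of ratios scaling, 5 with array weights, 53 with failed estimates kept, 6 without lane L004, and 4 to 495 leaving out 1 library (495 without Het APAP 1, 281 without OE APAP 2). Nampt did not pass with lane (0.42), from the 5 libraries or the APAP libraries alone (0.90 each), with the 300 mg/kg liver counted (0.70), with no filter (0.89), after quantile normalisation (0.76), without lane L004 (0.36) or with the 300 mg/kg liver in place of OE APAP 1 (0.39), and ranged over 0.42 to 1.31 leaving out 1 library, not passing without OE APAP 1 (0.42), Het APAP 2 (0.72) or Het APAP 3 (0.92). Differences changed sign for Cyp1a2 (-0.57 with lane, and -0.0742 to 1.06 leaving out 1 library), Cyp2e1 (-0.35 with lane), Mt1 (0.34 without lane L004), Mt2 (0.21 with lane, 0.67 without lane L004, and -5.87 to 0.00949 leaving out 1 library), Saa1 (0.24 without lane L004), Col3a1 (0.13 with lane, 0.10 without lane L004), Cxcl1 (-0.0248 after quantile normalisation, and -0.71 to 1.60 leaving out 1 library), Cyp2c50 (-0.73 with lane) and Sirt1 (0.0421 with lane), none of which had passed. The medians of 12 of 36 lists changed sign under at least 1 alternative, among them pericentral (-0.29 with lane), acute phase (0.16 without lane L004) and heat shock (-0.20 with the 300 mg/kg liver in place of OE APAP 1). The cause was not tested. The setting with the 300 mg/kg liver in place of OE APAP 1, under which 1617 of 1630 called genes kept their sign, and the counts per list were added after the data were seen. No paired analysis was possible because the replicate numbers were given in accession order and pair no samples. With 7.01 fragments behind 1 FPKM of a 1 kb transcript, OE APAP 1 limits what can be seen of low genes. The 300 mg/kg liver, with 5.28 fragments, limits the settings that use it.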

Other observations

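Of 30 complement and coagulation genes, most of which encode plasma proteins that the liver secretes, 12 were higher and 1 was lower (median 0.51). Serpind1, the thrombin inhibitor heparin cofactor II, read 273 and 247 FPKM in OE livers, against 113, 52.4 and 93.4 FPKM in Het livers (difference 1.60 ± 0.29, adjusted p = 0.00754), and F9, coagulation factor IX, differed by 0.86 ± 0.18 (adjusted p = 0.0115). In glucose handling, 3 of 22 genes were higher and 3 lower (median 0.23). The shares to set beside this and the other counts given here are those over all genes tested, 8.85% higher and 5.72% lower. The higher ones included the hepatocyte genes Gys2 and Fbp1, of gluconeogenesis (1.55 ± 0.23, adjusted p = 0.00461). The lower ones were Pkm, a pyruvate kinase low in hepatocytes, at 7.38 and 14.2 FPKM in OE livers and 41.4, 76.5 and 82.8 FPKM in Het livers (difference -2.53 ± 0.52, adjusted p = 0.0133), the glucose transporter Slc2a1 (-1.48) and the hexokinase Hk1 (-1.13). In lipogenesis, 4 of 18 genes were higher and none lower (median 0.49), led by p by Dgat2, which makes triglyceride (1.10 ± 0.19, adjusted p = 0.0058).

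The further lists had few called genes, and 8.85% of all genes tested were higher and 5.72% lower. Of 22 genes of the growth hormone axis and male-biased expression 5 were higher and none lower (median 0.57). Nudt7, a peroxisomal coenzyme A hydrolase, read 222 and 423 FPKM in OE livers, against 82.4, 42.7 and 72.8 FPKM in Het livers (difference 2.14 ± 0.29, adjusted p = 0.00379), and Ghr, the growth hormone receptor, differed by 1.05 ± 0.19 (adjusted p = 0.00776). Of 17 iron and haem genes 4 were higher and 3 lower (median 0.49), among them Fth1, the ferritin heavy chain, at 649.8 and 548 FPKM in OE livers and 1014, 1309 and 1199.5 FPKM in Het livers (difference -0.91 ± 0.22, adjusted p = 0.0195). Of 16 clock genes 3 were higher and 1 lower (median 0.45), with the output factor Dbp at 23.5 and 11.4 FPKM in OE livers and 6.14, 0.911 and 2.46 FPKM in Het livers (difference 2.24 ± 0.51, adjusted p = 0.0189). Of 22 sinusoidal endothelium genes 1 was higher and 4 lower (median -0.05, 0.01 after quantile normalisation), including Pecam1 (-0.92 ± 0.25, adjusted p = 0.033). Of 12 erythroid and platelet genes 2 were lower and none higher (median -0.50), both of them platelet genes. Ppbp was listed at 0 in OE APAP 1 and read 0.231 FPKM in OE APAP 2, against 1.60, 3.18 and 3.75 FPKM in Het livers (difference -1.71 ± 0.27, adjusted p = 0.00479). Of 30 proteasome subunits none passed in limma, with a median of 0.23 that was -0.10 after quantile normalisation. Of the lymphocyte list only Ighm was tested, and it did not pass. Without OE APAP 1 the members of these lists that passed numbered 0, apart from Cyp4a12a of the growth hormone list. With the 300 mg/kg liver in its place 14 complement and coagulation genes, 4 glucose genes, 6 lipogenesis genes, 7 growth hormone genes, 4 iron genes, 4 clock genes, 1 endothelium gene and 1 erythroid or platelet gene were higher, while 1 complement and coagulation gene, 4 glucose genes, 3 iron genes, 4 endothelium genes and 1 erythroid or platelet gene were lower.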
